A study of Drosophila melanogaster with 2 samples.

Results

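The proteasome subunit genes of Drosophila melanogaster were taken as all protein-coding genes whose symbol is Rpn, Rpt, Prosalpha or Prosbeta followed by a number. The rule found 48 of 13968 protein-coding genes. Of these, 16 were testis-type paralogs, meaning symbols that end in R, T, T1, T2, R1 or R2, and the other 32 were the general subunits: 8 of the lid, 10 of the base and 14 of the core. Rpn10, which sits between lid and base, was counted in the base, and the lid and base counts depend on that choice. Testis-type is a name by symbol only, since expression was not measured in these data. A gene was counted as having a promoter peak when the summit of a peak lay within 500 bp of one of its annotated transcription start sites.

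The proteasome is the protease of the cytosol and nucleus that degrades proteins tagged with ubiquitin. Its barrel-shaped core is built of rings of alpha subunits, which gate the entrance, and rings of beta subunits, some of which cut peptide bonds. On the core sits a cap made of a base, whose ring of Rpt ATPases unfolds substrates and feeds them in, and a lid, which takes the ubiquitin off. Flies carry extra copies of several subunit genes, and a number of these copies are known to be expressed in the male germ line.

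The series profiled the binding of the protein CG8478 by chromatin immunoprecipitation and sequencing (ChIP-seq). Whole embryos aged 0 to 24 h came from a transgenic strain that carries CG8478 fused to eGFP, a green fluorescent protein used as a tag, and an anti-GFP antibody pulled down chromatin that had been sonicated to fragments of 200 to 800 bp. There was 1 group of 2 biological replicates of the same strain and no second group; sex was not collected, and a control named in the labels was not analysed here. Whole embryos pool all cell types, so a peak does not tell in which cells the tagged protein was bound.

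The main peak list was the authors' conservative list, made from both replicates, with 2904 peaks on the 7 chromosome arms. Replicate 1's own list held 2520 peaks on these arms and replicate 2's held 2225. Each peak has a signal value that the authors deposited with no stated scale, so signals were ordered only within a list. Values of the separate lists are given side by side as deposited, on no known common scale, and the read depth behind them is unknown.

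Nearly all promoter peaks at proteasome genes were at general subunits. Of the 48 genes, 23 had a promoter peak in the conservative list (47.9%, 95% Wilson interval 34.5 to 61.7), against 22.6% of all protein-coding genes. Only 1 of the 16 testis-type genes had a peak (6.25%, 1.11 to 28.3), and 22 of the 32 general genes had one (68.8%, 51.4 to 82). The intervals of the testis-type and general shares do not overlap. The testis-type interval covers the 22.6% of all protein-coding genes, and the general interval lies above it. The intervals cover the counting error of genes only; no test was run, since the genes were chosen with results of these data known.

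All parts of the general complex were represented. Peaks were found at 5 of the 8 lid genes (62.5%, 30.6 to 86.3), 6 of the 10 base genes (60%, 31.3 to 83.2) and 11 of the 14 core genes (78.6%, 52.4 to 92.4). The core count was made of 6 of the 7 alpha subunits and 5 of the 7 beta subunits, and the base count of 4 of the 6 ATPases and 2 of the 4 other base subunits. The intervals of lid, base and core overlap widely, so the data show no order among these parts.

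**Figure D1:**
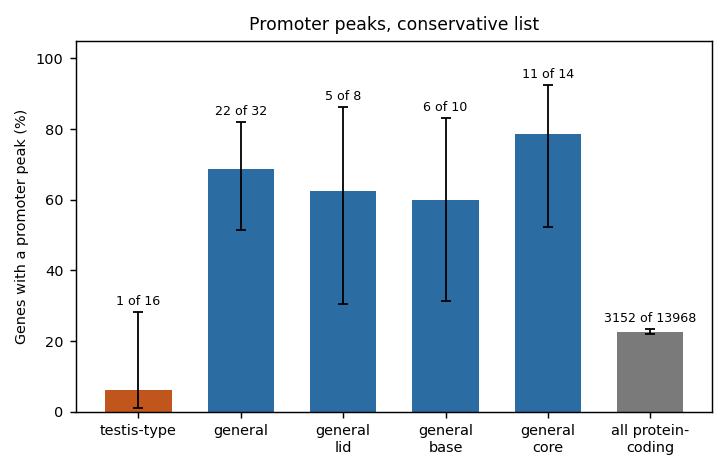
Share of genes with a promoter peak in the conservative list, in percent, for testis-type and general proteasome genes, for the 3 parts of the general complex and for all protein-coding genes. Bars carry 95% Wilson intervals and the counts. The testis-type bar stands at 6.25% and the general bar at 68.8%, on either side of the 22.6% of all protein-coding genes. The testis-type interval covers 22.6%.

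The peaks at proteasome genes spanned nearly the whole height range of promoter peaks. The 23 genes had a median signal of 134 for their highest peak, against 166 for all protein-coding genes with a peak. General genes with a peak ran from 63.8 to 1507. The 25 distinct peaks at these genes had a median of 122, against 144 for all promoter peaks of protein-coding genes. Of the 23 genes, 12 had their peak in the upper 50% of the list and 6 among its top 500 peaks. The lowest of the 12, Rpn5, stood above 39.6% of all protein-coding genes with a peak. The lowest of the 6, Rpn2, stood above 80.3% of them. These 2 counts were not made for all genes with a peak, so they do not set proteasome genes apart. The 95% interval of the median of 122 ran from 101.01 to 208.37 and covers the 144. So proteasome genes had peaks more often than protein-coding genes at large, and the median signal of those peaks was not set apart from that of promoter peaks at large.

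Among the lid genes the highest peak was at Rpn6, whose product is a scaffold of the lid. Its peak at chr2R:14752167-14752610 (dm6) ranked 2 of 2904 with a signal of 1507, and its summit lay 94 bp upstream of the inner of the 2 starts of Rpn6, 545 bp downstream of the outermost one and 156 bp upstream of the start of ave, on the opposite strand. The signal there was 728 in replicate 1 and 760 in replicate 2, rank 2 in each replicate's own list. Rpn6 is thus the member at which both replicates stood highest.

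Rpn12, another lid subunit, had a peak of 208 (rank 890, chr3L:16582904-16583053) with the summit 64 bp upstream of its start and no other gene's start within 500 bp. It had 142 in replicate 1 (rank 607 of 2520) and 71.1 in replicate 2 (rank 1251 of 2225). The other lid peaks were lower: 134 at Rpn5, 111 at Rpn3 and 63.8 at Rpn11, the enzyme that removes ubiquitin from substrates. The summits at Rpn5 and Rpn11 were the farthest from their own starts, 376 and 335 bp upstream, and the Rpn5 summit lay 43 bp upstream of the start of Hat1. In replicate 1 the Rpn5 entry had its summit 219 bp upstream, and in replicate 2 at 372 bp.

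Among the base genes Rpn10, a receptor for ubiquitin chains, had the highest peak, 732 (rank 44, chr3L:21536860-21537161). Its summit lay 13 bp inside the gene, with no other start within 500 bp, and its signal was 389 in replicate 1 and 339.9 in replicate 2. Rpn2, a large scaffold of the base, followed with 324 (rank 424, chr3R:29153335-29153600) and a summit 40 bp upstream of Rpn2 and 218 bp upstream of Slbp. It had 162 in replicate 1 and 164 in replicate 2. Both replicates placed these non-ATPase subunits above every ATPase.

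The ATPase peaks were lower and of like height. Rpt5 had 196 (rank 954, chr3R:23752797-23752898), with the summit 28 bp upstream of its start and 14 bp upstream of RanBP3, and 99.5 in replicate 1 against 98.1 in replicate 2. Rpt3 had a pair of peaks, of 167 (rank 1144, chrX:11124720-11124892) and 101.01, with summits 285 and 48 bp upstream of its start. The higher one was nearer to CG11122, 90 bp upstream of that gene. The highest entry at Rpt3 in replicate 1 was 100.4, with its summit 159 bp upstream of the start. That summit lies between those of the pair, so the entry cannot be matched to 1 of the peaks. In replicate 2 the highest entry was 79.6, at 331 bp upstream, nearer to the higher peak. Rpt1 had a peak of 144 and Rpt6 one of 116.

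In the core, Prosbeta2, which carries the trypsin-like activity, had the highest peak: 515 (rank 145, chr3L:14999625-15000057), with 266 in replicate 1 and 241 in replicate 2. Its summit lay 60 bp upstream of the gene and 225 bp upstream of mRpL39. The other catalytic subunits also had peaks in the upper 50% of the list. Prosbeta1, of caspase-like activity, had 334 (rank 403, chr2R:16014748-16014989), with 159 in replicate 1 and 176 in replicate 2. Prosbeta5, of chymotrypsin-like activity, had 239 (rank 725, chr2R:10819843-10820034), with 106 in replicate 1 and 135 in replicate 2.

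Both of these beta peaks sat nearer to a neighbour than to the subunit gene. The Prosbeta1 summit was 100 bp upstream of its start and 21 bp upstream of Rrp42, and the Prosbeta5 summit 51 bp upstream of its start and 43 bp upstream of dgo. Among alpha subunits, which line the outer rings, Prosalpha7 was highest with 412 (rank 262, chr2R:9847738-9847991), 24 bp upstream of the gene and with the opposite start of CG1671 also within 500 bp. It had 213 in replicate 1 and 207 in replicate 2. The other alpha peaks were 122 at Prosalpha6, 103 at Prosalpha3, 91.6 at Prosalpha4, 76.6 at Prosalpha5 and 68.8 at Prosalpha2. A further weak peak of 9.27 lay 181 bp inside Prosalpha3. The non-catalytic Prosbeta7 and Prosbeta6 had 122 and 78.3.

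Most of the genes had a peak in both replicates, and the 8 that did not all had conservative peaks below the median of 134. Of the 23 genes, 15 had a peak in both replicates' own lists, 3 in replicate 1's only, 2 in replicate 2's only and 3 in neither, namely Prosalpha2, Prosalpha5 and Rpn11. This split was not counted for all protein-coding genes with a peak. In the ranked lists, which reach below the authors' threshold, all 23 had an entry in both replicates. That is close to given, since the conservative list was made from both replicates, so it adds no support. Of all protein-coding genes 62.4% had such an entry in replicate 1 and 72% in replicate 2.

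The contrast between testis-type and general genes was present in each list. In replicate 1's own list 2 of 16 testis-type and 17 of 32 general genes had a peak, in all 19 of 48, against 19.5% of all protein-coding genes. In replicate 2's list 0 of 16 testis-type (interval up to 19.4%) and 18 of 32 general genes did, in all 18 of 48, against 18.8%. In the optimal list, a larger one from both replicates, 1 of 16 and 23 of 32 did, in all 24 of 48, against 23.5%. The testis-type share was below that of all protein-coding genes in each of these lists, and the general share above it. The testis-type intervals reached up to 36% in replicate 1, 19.4% in replicate 2 and 28.3% in the optimal list. Each thus covers the share of all protein-coding genes, so these counts do not set testis-type genes apart from genes at large.

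The ranked lists, which hold entries far below the threshold, showed the same order in the height of the entries. Between replicates 41 of the 48 genes had an entry, against 76% of all protein-coding genes: 10 of 16 testis-type genes with a median signal of 27.1, and 31 of 32 general genes with a median of 111, where all protein-coding genes with an entry had 35.1. In replicate 1, 36 of 48 had one, against 62.4%, with medians of 13.8 in 6 testis-type genes, 62.2 in 30 general genes and 25.7 in all. In replicate 2, 41 of 48 had one, against 72%, with medians of 14.7 in 10 testis-type genes, 52.7 in 31 general genes and 18.6 in all. In all 3 ranked lists the testis-type median was below, and the general median above, that of all protein-coding genes with an entry.

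**Figure D2:**
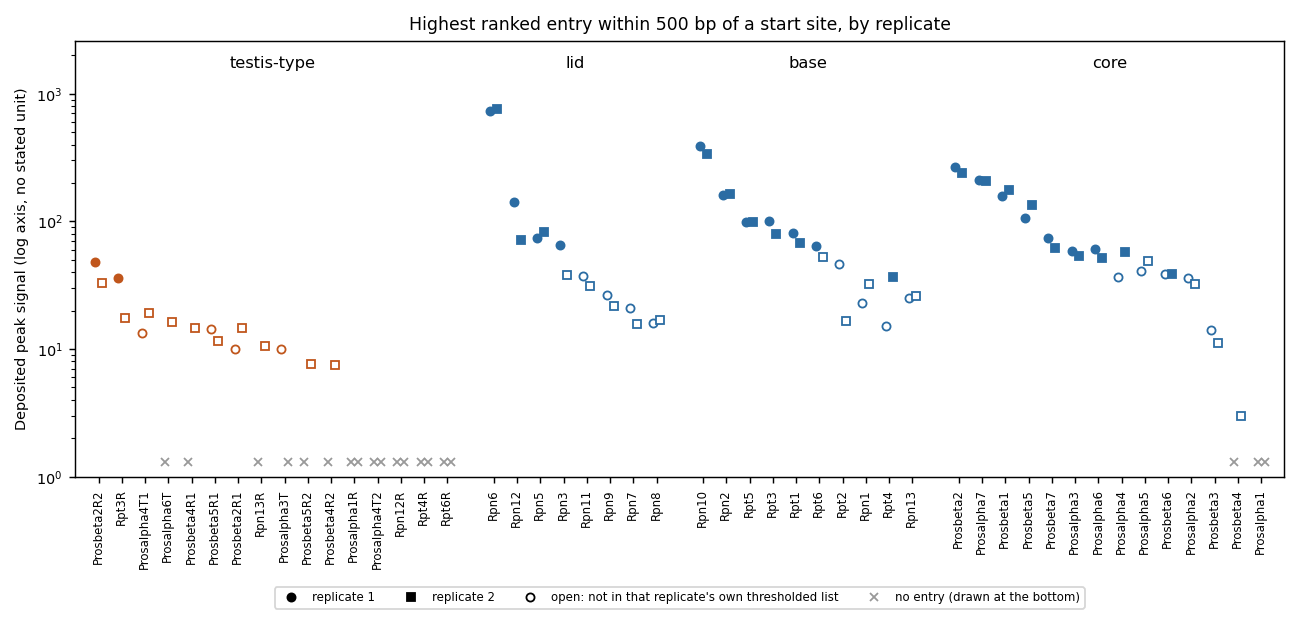
Highest ranked entry within 500 bp of a start site of each of the 48 genes, by replicate, on a log axis of the deposited signal, which has no stated unit; circles are replicate 1, squares replicate 2, filled where the gene also has a peak in that replicate's own thresholded list, and crosses mark genes with no entry. Rpn6 stands highest in both replicates at 728 and 760, and Prosbeta2R2 is the highest testis-type gene in both, at 48.5 and 32.9.

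The summits lay close to the start sites. Of the 23 genes, 19 had the summit of their highest peak within 100 bp of a start (82.6%), against 65.1% of all protein-coding genes with a peak. The median position was 35 bp upstream of the start, against 59 bp upstream for all, and 18 of 23 summits were upstream (78.3%), against 86.4%. Many of these promoters are shared: 14 of 23 genes had another gene's start within 500 bp of the same summit (60.9%), against 62.2% of all protein-coding genes with a peak. In 7 of the 14 the other gene's start was the nearer one, and the list does not tell which of the promoters the signal belongs to. The other 9 genes, Rpn10, Rpn11, Rpn12, Rpt1, Rpt6, Prosalpha2, Prosalpha5, Prosbeta6 and Prosbeta7, were the only genes with a start in reach of their peak.

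**Figure D3:**
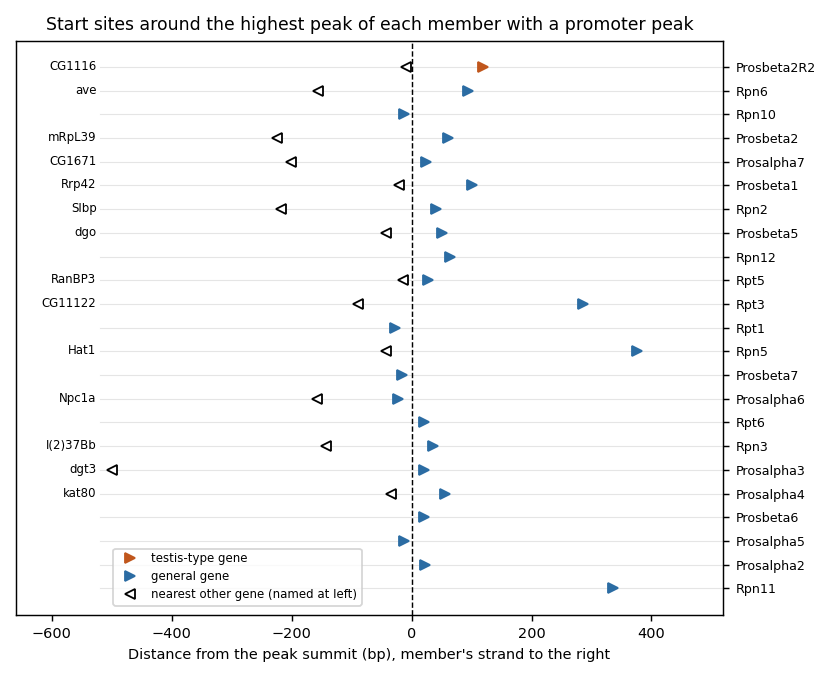
Start sites around the summit of the highest conservative peak of each of the 23 genes, in bp from the summit, with the proteasome gene reading to the right; filled arrowheads are the testis-type gene (top row) and general genes in order of signal, open arrowheads the nearest start of another gene, named at left. Most proteasome starts lie within 100 bp of the summit, and all of the 14 neighbours shown read away on the opposite strand.

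Summit sequences of a few peaks are printed to show the short motifs that recur at them. Rpn10, Rpn2, Rpn12 and Rpt5 are among the 10 highest peaks and Prosalpha2 among the lowest. Each line holds the summit base and 50 bases on either side of it in the dm6 genome, read 5′ to 3′ on the strand of the gene. Capitals mark TATCGATA, the DNA replication-related element (DRE) that the factor DREF recognises; its core ATCGAT, the letters CGATA, known from sites of the insulator protein BEAF-32, and GGTCACAC, the site of the factor M1BP, each on either strand.
Rpn10 (chr3L:21536963-21537063, plus strand): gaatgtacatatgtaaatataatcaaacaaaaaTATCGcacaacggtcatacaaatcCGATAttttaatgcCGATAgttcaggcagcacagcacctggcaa
Rpn2 (chr3R:29153434-29153534, plus strand): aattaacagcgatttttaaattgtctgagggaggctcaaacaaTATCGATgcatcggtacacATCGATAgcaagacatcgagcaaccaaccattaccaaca
Rpn12 (chr3L:16582914-16583014, plus strand): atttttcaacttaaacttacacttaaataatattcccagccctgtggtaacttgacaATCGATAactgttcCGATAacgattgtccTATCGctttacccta
Rpt5 (chr3R:23752798-23752898, plus strand): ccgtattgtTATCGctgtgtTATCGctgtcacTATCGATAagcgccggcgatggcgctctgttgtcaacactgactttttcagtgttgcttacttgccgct
Prosalpha2 (chr3R:12431248-12431348, plus strand): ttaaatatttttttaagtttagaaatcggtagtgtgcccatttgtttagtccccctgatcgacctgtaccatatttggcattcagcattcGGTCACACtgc

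The Rpn10 window held CGATA on both strands and no DRE core. Rpn2 and Rpn12 held the core, and Rpt5 the full DRE beside 2 more copies of CGATA, while Prosalpha2 held GGTCACAC and none of the other 3 motifs. TATCGATA contains both ATCGAT and CGATA, so these 3 counts overlap. Within 100 bp on either side of the summit, CGATA was present at 22 of the 25 peaks (88%), against 79.8% of the 2411 promoter peaks of protein-coding genes. ATCGAT was present at 14 of 25 (56%), against 58.2%, and the full DRE at 9 of 25 (36%), against 31.1%. In the shares of these motifs the proteasome peaks were close to promoter peaks at large. For the 14 genes with ATCGAT near the summit, the distance of the nearest copy from the summit ran from 3.5 to 71.5 bp with a median of 31.5 bp. The window limits this distance to 100 bp, and it was not computed for promoter peaks at large.

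Other motifs were rare at the proteasome peaks. GGTCACAC was present at 2 of 25 (8%), against 9.21% of promoter peaks. TATAAA, the TATA box, was at 4 of 25 (16%), against 25.5%, and the E-box CAGCTG at 0 of 25, against 15.1%. The antioxidant response element TGACNNNGC, which cnc, the fly relative of the Nrf factors that control proteasome genes in mammals, recognises together with maf-S, was at 2 of 25 (8%), against 6.22%. A match of letters is not a site of binding, and presence was counted on either strand.

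The windows from 250 bp before to 50 bp after the outermost start of testis-type and general genes differed most in the DRE motifs. TATCGATA was in 0 of 16 testis-type and 12 of 32 general windows (37.5%), against 9.36% of all protein-coding genes. ATCGAT was in 1 of 16 (6.25%) and 17 of 32 (53.1%), against 23.3%, and CGATA in 8 of 16 (50%) and 27 of 32 (84.4%), against 47.3%. TATAAA was in 5 of 16 (31.2%) and 13 of 32 (40.6%), against 45.8%; GGTCACAC was in 0 of 16 and 5 of 32 (15.6%), against 7.69%. CAGCTG was in 1 of 16 testis-type and 1 of 32 general windows, against 17.6%, and TGACNNNGC in 1 of 16 and 5 of 32, against 8.62%. Testis-type windows were thus near or below all protein-coding genes in the DRE motifs, and general windows above them.

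General genes with and without a peak held the DRE motifs at shares that were closer together than genome-wide. Among general genes TATCGATA was in 9 of 22 windows with a peak (40.9%) and in 3 of 10 without (30%), and ATCGAT in 12 of 22 (54.5%) and 5 of 10 (50%). Among all protein-coding genes TATCGATA was in 31.4% of windows with a peak and 2.93% of those without, and ATCGAT in 58.8% and 12.9%. CGATA was in 20 of 22 general windows with a peak (90.9%) and 7 of 10 without (70%), against 81.4% and 37.4% of all protein-coding genes. Only 10 general genes had no peak, and the difference from the genome-wide contrast was not tested.

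The general genes without a peak came from all parts of the complex. In the lid these were Rpn7, Rpn8, the partner of Rpn11, and Rpn9. Their ranked entries between replicates were 40.3, 21.2 and 52.9. In the base they were the ATPases Rpt2 and Rpt4 with 65.5 and 53.6, the scaffold Rpn1 with 41.8 and the ubiquitin receptor Rpn13 with 37.2. In the core, Prosbeta4 had 26.9 and Prosbeta3 6.72, and Prosalpha1 had no entry.

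Of these genes Rpn9 and Rpn1 came nearest to the conservative threshold, by the repeat of their entries between replicates. The lowest −log10 of the irreproducible discovery rate (IDR), the authors' measure of how well a peak repeats, was 2 in the conservative list; the Rpn9 entry had 1.65 and the Rpn1 entry 1.55. In the separate replicates the highest entries of these genes lay apart. Those of Rpn9 were 208 bp upstream of a start in replicate 1 and 210 bp downstream in replicate 2. Those of Rpn1 were 278 bp downstream and 67 bp upstream. Rpt2, which had the highest ranked signal of the genes without a peak, had an IDR value of 0.49 and Rpt4 one of 0.14, so both repeated far less well between replicates. Rpt2 had 46.4 in replicate 1 (rank 2225 of 63638 ranked entries) and 16.7 in replicate 2 (rank 15131 of 89588). Rpt4, whose start lies beside that of mldr, had a peak in the optimal list and in replicate 2's own list with 36.8, and only a ranked entry of 15.2 in replicate 1. The farthest highest-peak summit counted was that of Rpn5 at 376 bp. Beyond the window and up to 1000 bp there was 1 further summit, of 54.4 and 555 bp upstream of Prosalpha3, which had a nearer peak, so no gene was added by the wider window.

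Rpn7 is printed because its start window held the full DRE and GGTCACAC while the gene had no peak. The line is 300 bases of the dm6 genome on the strand of the gene, with capitals as above, and the DRE lies after the annotated start.
Rpn7 (chr3R:22462005-22462304, minus strand): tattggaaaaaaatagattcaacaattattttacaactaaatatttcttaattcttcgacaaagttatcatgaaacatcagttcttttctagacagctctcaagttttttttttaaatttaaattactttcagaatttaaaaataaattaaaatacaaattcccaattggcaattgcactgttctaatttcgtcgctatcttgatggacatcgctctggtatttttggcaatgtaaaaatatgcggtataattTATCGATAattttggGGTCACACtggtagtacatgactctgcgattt

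Of the testis-type genes only the paralog of Prosbeta2 named Prosbeta2R2 had a conservative peak. Its signal was 82.3 (rank 2038, chr3R:5219445-5219848), and the summit lay 119 bp upstream of Prosbeta2R2 and 10 bp upstream of CG1116 on the opposite strand. The gene was in replicate 1's own list with 48.5 and had a ranked entry of 32.9 in replicate 2, below the threshold, and it was not in the optimal list. In replicate 1 the summit lay 38 bp inside CG1116 and 167 bp upstream of Prosbeta2R2. With each peak counted only for the nearest start, no testis-type gene had one, and general genes with a peak went from 22 to 17.

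Rpt3R, the paralog of the ATPase Rpt3, was the other testis-type gene in any thresholded list. It had a peak in the optimal list with 45.6 (rank 2895 of 3101, chr3R:9755996-9756399), and in replicate 1's own list with 36.1 (rank 2252 of 2520). Rpt3R has 2 annotated starts. The optimal summit lay 16 bp downstream of the inner start, 312 bp downstream of the outermost one and 293 bp upstream of Alg12 on the other strand. In replicate 2 its ranked entry was 17.6. Both testis-type genes in a thresholded list thus had another gene's start within 500 bp of the summit.

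The remaining 14 testis-type genes had at most entries below the threshold. Between replicates, Prosalpha4T1 had 48.8, Prosbeta5R1 43.3, Prosalpha6T 27.8, Prosbeta2R1 26.4, Prosbeta4R1 18.6, Rpt4R 15.4, Prosbeta4R2 13.7 and Prosalpha3T 13.6. Prosalpha4T1 and Prosbeta5R1 stood above the median of 35.1 of all protein-coding genes with an entry, and the others below it. In 7 of the 8 the summit lay over 200 bp from the start. The share of such distances among all genes with an entry was not counted. Rpn13R and Prosbeta5R2 had entries in replicate 2 alone, of 10.6 and 7.66. Prosalpha1R, Prosalpha4T2, Rpt6R and Rpn12R had none in any list.

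Prosalpha1R and its general counterpart Prosalpha1 cannot be told apart by sequence at their promoters. They have identical coding sequences and lie as neighbouring copies, 3093 bp apart from start to start on the same chromosome arm, inside a stretch in which 3112 bp around the start codons are the same in both. Neither had an entry in any list, thresholded or ranked. Short reads from such a stretch match both copies, and how the authors treated reads with several matches is not given in the sources used here; the part of this in the missing entries was not tested. Without the pair, 1 of 15 testis-type genes (6.67%) and 22 of 31 general genes (71%) had a peak, and 11 of 13 core genes (84.6%).

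Set side by side, testis-type genes had the lower entry in most pairs. The 16 testis-type genes extend 12 general genes, of which 8 had a peak. In 10 pairs the general gene alone had a peak, in 1 pair (Prosbeta2R2 and Prosbeta2) both did, in 5 neither did, and in 0 the testis-type gene alone. The largest distance was between Prosbeta2R1 at 26.4 and Prosbeta2 at 515 in the ranked list between replicates. In replicate 1 Prosbeta2R1 had 9.97 and Prosbeta2 266, and in replicate 2 Prosbeta2R1 had 14.6 and Prosbeta2 241. The testis-type entry was the lower one in all 10 pairs with both entries between replicates, in 6 of 6 in replicate 1 and in 8 of 10 in replicate 2. The 2 exceptions were Prosbeta4R1 with 14.8 and Prosbeta4R2 with 7.55 in replicate 2, against 2.97 for Prosbeta4. The pairs share general genes, so they are not independent of each other.

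**Figure D4:**
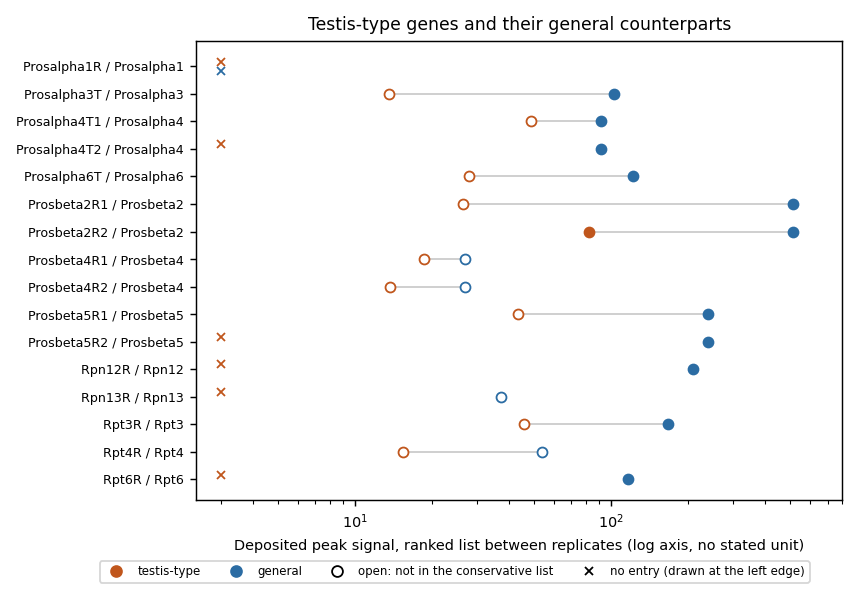
Ranked signal between replicates for the 16 testis-type genes (orange) and their general counterparts (blue), on a log axis with no stated unit; filled points have a peak in the conservative list, open points do not, and crosses at the left edge mark genes with no entry. In every pair with 2 entries the testis-type gene lies left of the general one, by the least for Prosbeta4R1 (18.6 against 26.9).

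The proteins of the pairs were mostly well apart in sequence. In a global alignment the closest general protein was in all 16 cases the one that the symbol names. Among the translated proteins of the 48 genes, 2 lacked a start or held an inner stop, and these were kept in the alignments. Identity ran from 28.7% for Rpn13R and Rpn13 to 87.4% for Rpt6R and Rpt6, leaving out the identical Prosalpha1R, with a median of 55.6% over the 16 pairs. Pairs of high identity also stood apart: Rpt6R had no entry where Rpt6 had 116, and Rpt4R, 81.9% identical to Rpt4, had 15.4 where Rpt4 had 53.6. Prosbeta2R2, the one testis-type gene with a conservative peak, had the second-lowest identity, 36.5%. Of the 16 testis-type genes 6 had no intron (37.5%), against 4 of 32 general genes (12.5%) and 15.3% of all protein-coding genes; 5 of the 6 stood against a general gene with introns.

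The start windows of Prosbeta2 and its paralogs are printed because this family holds the tallest core peak, a testis-type gene without a peak and the only testis-type gene with one. Each line is 300 bases of the dm6 genome on the strand of the gene, 250 before the start and 50 from it on, with capitals as above.
Prosbeta2R1 (chrX:5808704-5809003, plus strand): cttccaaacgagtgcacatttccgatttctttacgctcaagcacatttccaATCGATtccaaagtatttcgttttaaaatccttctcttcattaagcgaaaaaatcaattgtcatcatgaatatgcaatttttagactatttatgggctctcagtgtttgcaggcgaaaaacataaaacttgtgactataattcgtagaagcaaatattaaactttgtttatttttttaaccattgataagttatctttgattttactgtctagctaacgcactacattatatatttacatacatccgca
Prosbeta2R2 (chr3R:5219479-5219778, minus strand): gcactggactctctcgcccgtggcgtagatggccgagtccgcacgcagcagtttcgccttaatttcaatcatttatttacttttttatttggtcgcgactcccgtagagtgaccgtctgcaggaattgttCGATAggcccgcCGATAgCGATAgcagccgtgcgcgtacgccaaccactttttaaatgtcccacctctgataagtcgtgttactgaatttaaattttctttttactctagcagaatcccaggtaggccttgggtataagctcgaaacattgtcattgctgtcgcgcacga
Prosbeta2 (chr3L:14999701-15000000, plus strand): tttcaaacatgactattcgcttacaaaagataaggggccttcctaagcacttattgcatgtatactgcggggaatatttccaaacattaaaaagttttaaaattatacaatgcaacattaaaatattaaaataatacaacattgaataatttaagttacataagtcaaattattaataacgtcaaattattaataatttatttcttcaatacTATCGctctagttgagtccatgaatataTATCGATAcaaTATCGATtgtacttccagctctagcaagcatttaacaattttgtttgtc

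Prosbeta2R1 held a single ATCGAT far upstream of its start and no CGATA. Prosbeta2R2 held a cluster of CGATA on 1 strand, between its own start and that of CG1116, and Prosbeta2 held TATCGATA and a second ATCGAT within 50 bp of its start. Identity of the start windows was 51.4% between Prosbeta2R1 and Prosbeta2 and 44% between Prosbeta2R2 and Prosbeta2.

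The layout of the promoters also differed between testis-type and general genes. A start on the opposite strand within 500 bp, as at divergent promoters, was annotated for 3 of 16 testis-type genes (18.8%) and 21 of 32 general genes (65.6%), against 27.7% of all protein-coding genes. The 3 testis-type genes were Prosalpha1R, Prosbeta2R2 and Rpt3R. Genome-wide, genes with such a neighbour had a peak more often: 45.7% of them did, against 13.7% of genes without one. Among the general proteasome genes the order was the other way, with peaks at 12 of 21 genes with an opposite start (57.1%) and at 10 of 11 without (90.9%). In both settings the general share was above that of all protein-coding genes of the same layout. The gap was smaller with an opposite start (57.1% against 45.7%) than without one (90.9% against 13.7%). Of the 13 testis-type genes without an opposite start 0 had a peak, where 13.7% of all such genes did. These counts are small, no interval was computed for them and no difference between them was tested.

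**Figure D5:**
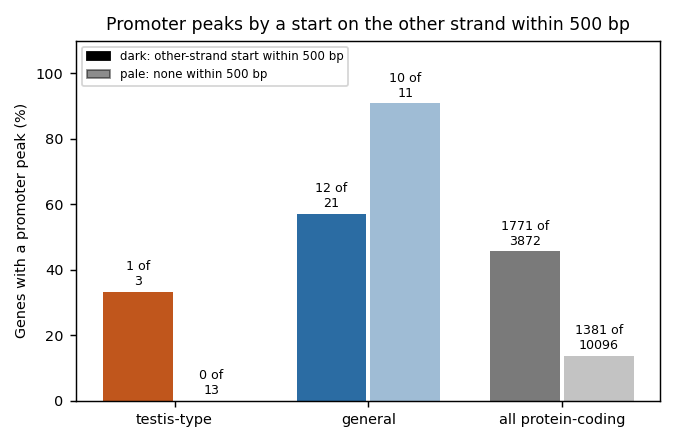
Share of genes with a conservative promoter peak, in percent, for genes with an opposite-strand start within 500 bp (dark bars) and without one (pale bars), with the counts above each bar. Among testis-type genes the only peak is at a gene with an opposite start; among general genes the pale bar is the taller (90.9% against 57.1%), and among all protein-coding genes the dark one (45.7% against 13.7%).

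Genes that act with the proteasome were counted by the same rule, from a list drawn up with earlier results known. Of 19 matched genes, 9 had a promoter peak, against 22.6% of all protein-coding genes. Among assembly factors, activators and bound enzymes 3 of 6 had one: PI31, a regulator that binds the core, with 254, the assembly chaperone Pomp with 115.4 and the nuclear activator REG with 100.04. Sem1, Uch-L5 and Usp14 had none. Among genes of ubiquitin and substrate delivery 6 of 11 had one, led by rngo, a shuttle protein, with 727 and TER94, the segregase known as VCP in mammals, with 563. Npl4 and Ufd1, which work with TER94, had 293 and 255, the ubiquitin-activating enzyme Uba1 had 217 and the polyubiquitin gene Ubi-p5E 42.1. The other ubiquitin genes, Ubi-p63E, RpL40 and RpS27A, and p47 and Pngl had none. The regulators cnc and maf-S had no promoter peak either.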

How the data were processed

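Anti-GFP ChIP-seq peak lists of 2 biological replicates of CG8478-eGFP embryos were used in dm6 coordinates, per the labels. The authors deposited, for each replicate and for both, thresholded lists and ranked lists; which aligner and peak caller made them is not given in the sources used here. Signal is the value per peak in the deposited lists, with no stated scale. The ranked lists hold the −log10 of the global IDR, as deposited by the authors. No read counts were used, so depth is unknown.

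Entries with equal ends were merged and limited to the 7 arms, leaving 2904 of 2948 conservative entries. The gene annotation was that of Ensembl release 115. Summits were matched to starts within 500 bp; proteins were aligned with BLOSUM62, gap costs 11 and 1. Motifs and sequences were read from the Release 6 genome of RefSeq, and 1 sequence is not reported here; 19 of the related genes matched and Ecm29 did not. The counting steps were tested on simulated data. The tools were Biopython 1.88, Python 3.11.15, pandas 2.3.3, NumPy 2.4.6, matplotlib 3.10.9 and SciPy 1.17.1.

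The genes, lists and motifs were chosen with earlier results of these data known. By the rule for named genes, full values are given for the 10 highest peaks and for each testis-type gene in a thresholded list, and all other genes by name. Counts and medians are descriptions beside all protein-coding genes, with no test. The alternatives were other lists, windows of 250 and 1000 bp, the upper 50% by signal, the nearest start only, and overlap of 1 bp.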

Additional observations from a re-analysis of the deposited data

How the results depend on the processing

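Of 56 values under the alternatives, 43 stayed within the limit of 1.5 times the count, or within the interval of the median signal, and 13 did not. When the list was cut to its upper 50% by signal, the count was 12 for all proteasome genes, 12 for general, 0 for testis-type, 3 for lid and 4 for core genes with the testis-type genes included (12 in the whole list), and the median signal 282. With the 250 bp window 3 lid genes were left, without Rpn5 and Rpn11, and with the nearest start only 0 testis-type genes. With 1 replicate left out, testis-type genes ran from 0 to 2, lid genes from 3 to 4 and the median signal from 81.0 to 99.5, in lists with signals of their own. Fewer peaks in the stricter list lower its counts by construction. The share of all protein-coding genes was not counted for the upper 50%, the 250 bp window or the nearest start. The counts under these settings thus do not tell how proteasome genes stand against genes at large there. No paired analysis was possible because there is 1 group and no test. Peaks shared by neighbouring starts, embryos of mixed cell types, the unstated scale of the signal and the unknown depth limit these values, and a gene without a peak is one not detected at this threshold.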
